A study of Mus musculus with 10 samples.

Results

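The genes described here are Krt5, Krt14 and Krt15, the keratins of the basal layer of mouse epidermis. They were chosen by name, and each has 1 row in both deposited tables of mouse genes, so 3 of 3 were found among 9779 genes present in both. All 3 also passed the filter on low read numbers that kept 5245 genes for testing. RNA came from ear skin of C57BL/6 mice (c57/Bl6 in the labels) aged 6 to 8 weeks, with no genetic change named. The benzamil group (4 libraries) received benzamil, a blocker of the epithelial sodium channel, together with imiquimod, a Toll-like receptor agonist that inflames mouse skin in a psoriasis-like way. The DMSO group (4 libraries) received imiquimod with the solvent DMSO, and the untreated group (2 libraries) received neither. Treatment was topical and lasted 6 days. The sample labels name ear skin throughout, whereas the series' design text also names back skin, for the treated mice and for the untreated controls, so body site and treatment cannot be told apart in comparisons with untreated skin. The labels do not say that libraries came from separate animals, so the p-values below cover only the spread seen between libraries, some of which may be technical.

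Keratins build the intermediate filaments of epithelial cells as obligate pairs of a type II and a type I chain. Dividing keratinocytes on the basement membrane make the pair of Krt5 (type II) and Krt14 (type I), and switch to Krt1 and Krt10 when they leave that layer. Krt15 is a further type I keratin of basal cells, is widely used as a marker of stem cells in the hair follicle bulge, and is known in human epidermis to be low where the epithelium is wounded or hyperproliferative. Wounded and inflamed epidermis also makes Krt6a, Krt6b, Krt16 and Krt17, often called stress keratins.

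On mm10 with the GENCODE M21 annotation, Krt5 lies at chr15:101707070-101712898 in the type II keratin cluster and has 9 exons. Krt14 lies at chr11:100203162-100207548 and Krt15 at chr11:100131758-100135928, both in the type I cluster and both with 8 exons. All 3 genes are on the minus strand. The libraries were made with a 3' kit, which takes fragments from the transcript end, so a read is assigned to a keratin by its end rather than by the conserved rod domain. The last 60 coding bases of the 3 genes are therefore shown, with those of Krt16, the type I stress keratin most like Krt14 in coding sequence among those compared, and with the stop codon in capitals. They were read from GENCODE M21 transcripts, 5′ to 3′ on the minus strand, each within the last coding exon, at chr15:101707436-101707495 for Krt5, chr11:100203312-100203371 for Krt14, chr11:100132017-100132076 for Krt15 and chr11:100246234-100246293 for Krt16.
Krt5: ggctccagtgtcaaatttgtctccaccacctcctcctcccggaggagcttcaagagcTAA
Krt14: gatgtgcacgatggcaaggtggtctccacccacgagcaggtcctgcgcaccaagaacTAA
Krt15: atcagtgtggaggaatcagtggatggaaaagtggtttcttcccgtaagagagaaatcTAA
Krt16: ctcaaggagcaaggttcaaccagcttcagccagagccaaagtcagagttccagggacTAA

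Identity between genes was computed over whole coding sequences, and not over these ends alone. Krt14 shared 83.7% of aligned bases with Krt16, 75.9% with Krt17 and 68.9% with Krt15, while Krt5 shared 77.1% with Krt6a. Of the 251 windows of 50 bases in the last 300 transcript bases of each of Krt5, Krt14 and Krt15, 0 occurred in a transcript of another gene. Krt14 and Krt15 overlap no other annotated gene, and Krt5 overlaps 1 microRNA gene on the opposite strand.

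The libraries were shallow. Reads in the joined table ranged from 138440 to 375455 in the benzamil group, from 259262 to 935714 in the DMSO group, and were 74614 and 71144 in untreated skin. Ribosomal RNA genes took 31.0% to 45.7% of reads in the benzamil group, 22.1% to 28.8% in the DMSO group, and 34.2% and 38.6% in untreated skin. Levels are given in CPM, read numbers divided by library size scaled by the trimmed mean of M-values (TMM), and are not divided by gene length because of the 3' kit. Basal keratinocyte markers were present in every group, with Itga6, an integrin chain of hemidesmosomes, at 826 ± 242 CPM in the benzamil group, 564 ± 27.0 CPM in the DMSO group and 852 ± 261 CPM in untreated skin (SD, n = 4, 4 and 2). In RNA of whole skin, fewer cells of a type and less RNA per cell cannot be told apart.

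Between DMSO and untreated skin, Krt15 and its basal partners went opposite ways. With imiquimod and DMSO it was 9.07-fold lower than in untreated skin, while Krt5 was 2.15-fold and Krt14 2.49-fold higher. With benzamil, Krt15 was 2.24-fold higher than with DMSO, and was 4.04-fold lower than in untreated skin. Neither Krt5 nor Krt14 passed the test between benzamil and DMSO.

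**Figure D1:**
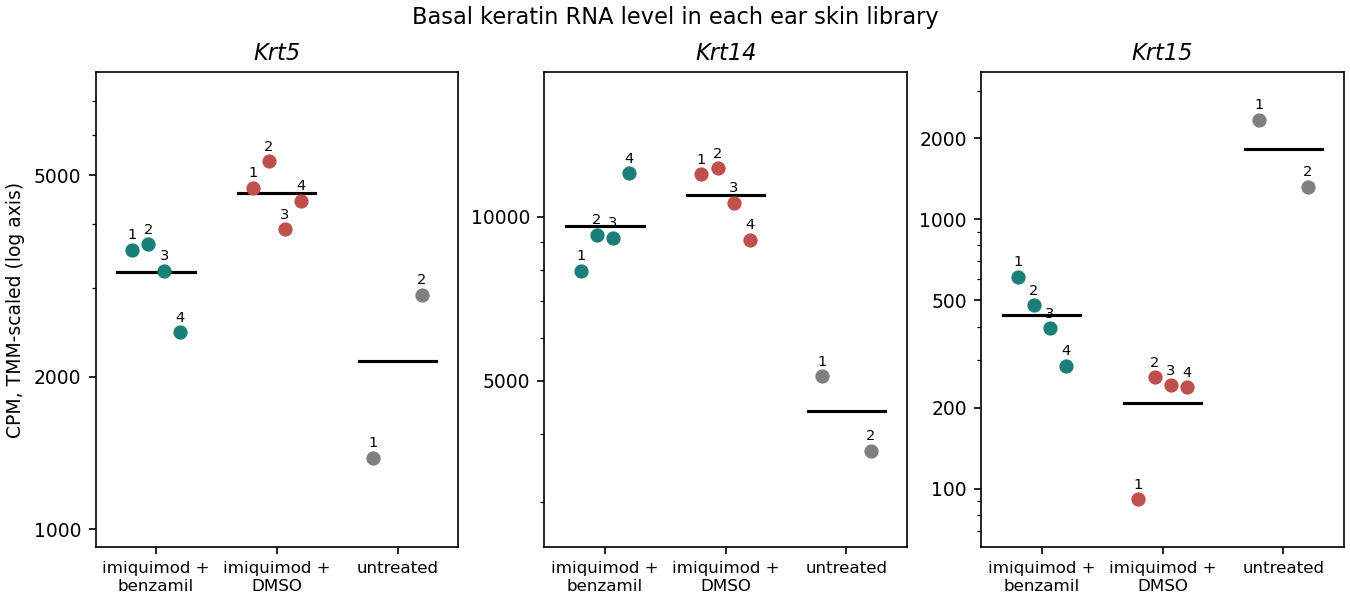
Level of Krt5, Krt14 and Krt15 in each library, in TMM-scaled CPM on log axes that differ between panels; points are libraries with their replicate numbers, and horizontal lines are group means. Group means of Krt5 and Krt14 are lowest in untreated skin, whereas Krt15 is highest there and lowest in the DMSO group, with DMSO library 1 at 91.4 CPM.

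Krt5 stood at 3564, 3653, 3242 and 2454 CPM in benzamil libraries 1 to 4. DMSO libraries 1 to 4 had 4728, 5326, 3918 and 4456 CPM of Krt5, and untreated libraries 1 and 2 had 1386 and 2907 CPM. Every benzamil library lay below every DMSO library, a pattern that 13.4% of all tested genes showed, and untreated library 2 lay within the benzamil range. Group means were 3228 ± 545 CPM with benzamil, 4607 ± 586 CPM with DMSO and 2147 ± 1075 CPM in untreated skin (SD, n = 4, 4 and 2).

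In benzamil over DMSO the fitted log2 change of Krt5 was −0.51 ± 0.23 (SE), with an adjusted p of 0.105 in edgeR's quasi-likelihood test over all tested genes, so it missed the threshold of 0.05. The authors' deposited table gives −0.51 for the same contrast, with an adjusted p of 0.0292 from DESeq2. Scaling by total reads alone moved the value to −0.78, with an adjusted p of 0.0186 in edgeR. That scaling also moved the median of all tested genes from −0.01 to −0.26, so that Krt5 stood about as far below the median as before. Relative to untreated skin, Krt5 in the DMSO group was higher by 1.10 ± 0.30 on the log2 scale (adjusted p = 0.0113, edgeR), where the median of all genes was 0.18. That call rested on untreated library 1: without it the value was 0.76 with an adjusted p of 0.16 in edgeR, and without untreated library 2 it was 1.84. Against untreated skin the benzamil group had a value of 0.59 ± 0.29, which did not pass (adjusted p = 0.27, edgeR).

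Krt14 stood at 7964, 9269, 9166 and 12024 CPM in benzamil libraries 1 to 4. In DMSO libraries 1 to 4 it stood at 11966, 12284, 10621 and 9086 CPM, and the untreated libraries 1 and 2 had 5101 and 3723 CPM. The benzamil and DMSO ranges overlapped, with benzamil library 4 above both DMSO libraries 3 and 4, and both untreated libraries lay below all others. Of all tested genes, 29.5% had every DMSO library above both untreated libraries. Group means were 9606 ± 1717 CPM with benzamil, 10989 ± 1459 CPM with DMSO and 4412 ± 975 CPM in untreated skin (SD, n = 4, 4 and 2).

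The fitted log2 change of Krt14 in benzamil over DMSO was −0.19 ± 0.22 (adjusted p = 0.564, edgeR). Relative to untreated skin, Krt14 was higher by 1.32 ± 0.29 with DMSO (adjusted p = 0.00256, edgeR) and by 1.12 ± 0.29 with benzamil (adjusted p = 0.0265, edgeR). The last call was not stable: it was lost without benzamil library 4 (0.99, adjusted p = 0.0524), without untreated library 2 (1.00, adjusted p = 0.154) and with scaling by total reads (0.95, adjusted p = 0.0904), all in edgeR.

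Krt15 stood at 613, 481, 394 and 286 CPM in benzamil libraries 1 to 4, from 202, 144, 59 and 36 reads. It stood at 91.4, 259, 243 and 239 CPM in DMSO libraries 1 to 4, from 88, 96, 66 and 86 reads. In untreated libraries 1 and 2 it stood at 2342 and 1320 CPM, from 174 and 89 reads. The groups did not overlap, with untreated libraries highest and DMSO libraries lowest, and benzamil library 4 lay closest to the DMSO range. Of all tested genes, 11.1% had every benzamil library above every DMSO library, and 18.6% had every DMSO library below both untreated libraries.

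Mean Krt15 levels were 443 ± 138 CPM with benzamil, 208 ± 78.3 CPM with DMSO and 1831 ± 723 CPM in untreated skin (SD, n = 4, 4 and 2). The fitted log2 changes were 1.17 ± 0.28 in benzamil over DMSO (adjusted p = 0.00421), −3.18 ± 0.33 in DMSO over untreated (adjusted p = 1.50e-07) and −2.02 ± 0.32 in benzamil over untreated (adjusted p = 0.000351), all from edgeR. The value in benzamil over untreated was −1.44 without untreated library 1, with an adjusted p of 0.0535 in edgeR. Leaving out any 1 library of the 2 groups gave 0.87 to 1.32 in benzamil over DMSO and −3.44 to −2.62 in DMSO over untreated, with the call kept each time. DMSO library 1, the deepest, held the lowest Krt15 level, and without it the value in benzamil over DMSO was 0.87. The authors' deposited tables give 0.97 for Krt15 in benzamil over DMSO (adjusted p = 0.00747) and 2.87 in their untreated over DMSO coding (adjusted p = 5.26e-10), both from DESeq2. The 3 comparisons share libraries, so they are not separate evidence for one another.

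**Figure D2:**
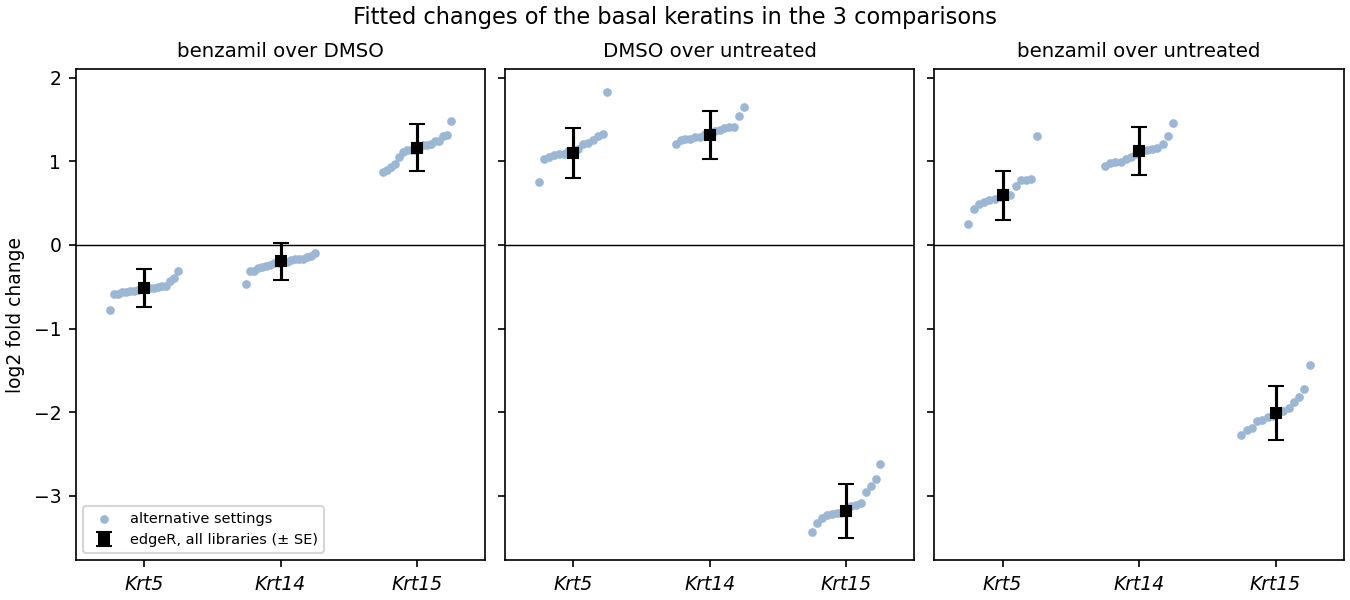
Log2 fold change of Krt5, Krt14 and Krt15 in the 3 comparisons; black squares are edgeR values from all 10 libraries with their standard errors, and blue points are the same change under each other processing setting or with libraries left out. Every point keeps the sign of its square, with Krt15 above 0 in benzamil over DMSO and below 0 in both comparisons with untreated skin.

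Of the 3 basal keratins, 1 was called higher and 0 lower in benzamil over DMSO, where 9.91% of all tested genes were called higher, 12.1% lower and 22.0% in either direction. Krt5 had an unadjusted p of 0.0324 in edgeR, and DESeq2 run on the recovered reads gave it −0.58 with an adjusted p of 0.0569. Between DMSO and untreated skin 2 of 3 were called higher and 1 lower, against 9.93% and 8.45% of all genes (18.4% in either direction). Between benzamil and untreated skin 1 was called higher and 1 lower, against 2.44% and 1.56% (4.00% in either direction). Scaling matters for such counts: benzamil over DMSO gave 520 genes higher and 635 lower with TMM, and 248 higher and 1009 lower with scaling by total reads.

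Shares within a library do not depend on scaling. Krt15 made up 5.05%, 3.59%, 3.07% and 1.94% of the reads of the 3 basal keratins in benzamil libraries 1 to 4. The DMSO libraries 1 to 4 had shares of 0.545%, 1.45%, 1.64% and 1.73%, and the untreated libraries had 26.5% and 16.6%. Every benzamil library lay above every DMSO library, but benzamil library 4 (95% Wilson interval 1.40% to 2.67%) and DMSO library 4 (1.41% to 2.13%) could not be told apart at this depth. These intervals cover counting error only.

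**Figure D3:**
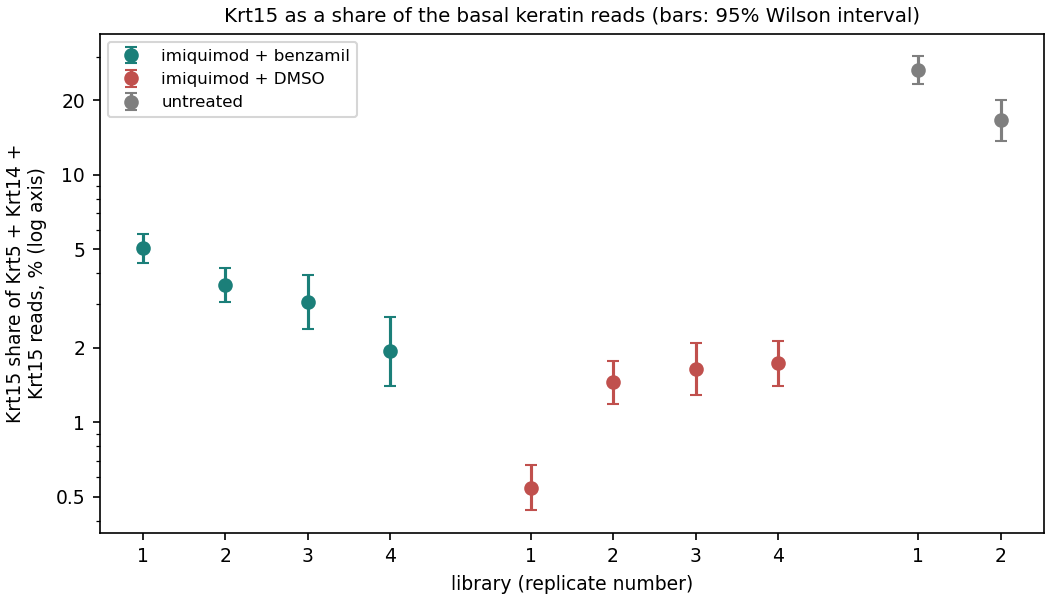
Krt15 as a share of the reads of Krt5, Krt14 and Krt15 together, in percent on a log axis, for each library; bars are 95% Wilson intervals. Untreated libraries stand at 26.5% and 16.6%, benzamil libraries at 1.94% to 5.05% and DMSO libraries at 0.545% to 1.73%.

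Ratios between keratins were compared between the benzamil and DMSO groups with exact two-sided permutation tests over libraries, for which 0.0286 is the smallest p with 4 against 4. Over the 7 ratios tested, no adjusted p was under 0.05, and 1 exact p was, that of Krt15 to Krt5. Because of that smallest p, 1 fully separated ratio alone could not reach an adjusted p under 0.05. A miss here therefore does not show that a ratio stayed the same. The log2 ratio of Krt15 to Krt5 averaged −2.90 ± 0.25 with benzamil and −4.57 ± 0.76 with DMSO, a difference of 1.67 ± 0.40 (SE), higher in 4 of 4 benzamil libraries than in any DMSO library (exact permutation p = 0.0286, adjusted 0.133). For Krt15 to Krt14 the difference was 1.35 ± 0.54, with 3 of 4 benzamil libraries above all DMSO libraries (exact permutation p = 0.0571, adjusted 0.133). In untreated skin Krt15 reads were 1.69 and 0.454 times the Krt5 reads of the same library.

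Krt14 and Krt5, the classical filament pair, kept a similar ratio in most libraries. Krt14 reads were 2.23, 2.54, 2.83 and 4.90 times the Krt5 reads in benzamil libraries 1 to 4. The ratio was 2.53, 2.31, 2.71 and 2.04 in DMSO libraries 1 to 4, while untreated libraries 1 and 2 had 3.68 and 1.28. Benzamil library 4, the shallowest of its group, stood above the rest, and the untreated libraries lay on either side of the others. The log2 difference between benzamil and DMSO was 0.32 ± 0.26 (exact permutation p = 0.257, adjusted 0.3).

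The basal keratins held a smaller share of all keratin reads with benzamil than with DMSO. They made up 20.8% to 26.7% of the reads of the 18 keratin genes in the benzamil group, 30.4% to 43.6% in the DMSO group, and 46.5% and 37.5% in untreated skin. The 3 main suprabasal keratins Krt1, Krt10 and Krt2 took 70.8% ± 3.98 of keratin reads with benzamil, 45.3% ± 10.1 with DMSO and 52.4% ± 5.20 in untreated skin (SD, n = 4, 4 and 2). Stress keratins took 3.88% ± 2.68 with benzamil, 18.0% ± 5.08 with DMSO and 0.949% ± 0.240 in untreated skin. The groups' basal shares did not overlap between benzamil and DMSO, and these shares were not tested. Such a share also depends on the other keratins in its total. Krt2 alone ranged from 15252 to 35666 CPM with benzamil and from 4703 to 11265 CPM with DMSO. A basal share without Krt2 was not computed, so the smaller share is not a result about the basal keratins alone.

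**Figure D4:**
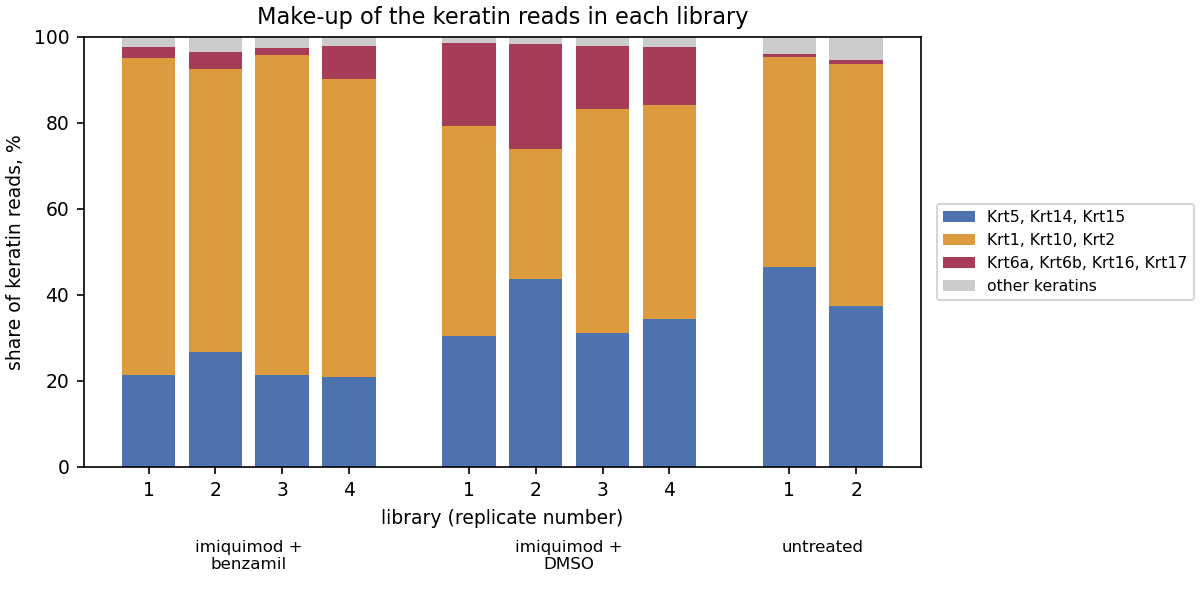
Share of all keratin reads taken by basal (Krt5, Krt14, Krt15), suprabasal (Krt1, Krt10, Krt2), stress (Krt6a, Krt6b, Krt16, Krt17) and other keratins in each library, as stacked bars from 0 to 100%. The blue basal part is 20.8% to 26.7% in benzamil libraries and 30.4% to 43.6% in DMSO libraries, and the red stress part is largest in the DMSO group.

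Suprabasal keratins differed in sign between benzamil and DMSO. Of 6 tested, 4 rose in benzamil over DMSO by edgeR, where 9.91% of all tested genes were called higher and 22.0% in either direction. The list's median log2 change was 1.22 against −0.01 over all genes. Krt2, a late type II keratin, rose by 1.65 ± 0.28 (adjusted p = 0.000207), and Krt78, Krt77 and Krt80 rose by 1.88, 1.84 and 0.80. Krt77 had 54, 45, 9 and 0 reads in benzamil libraries 1 to 4. It lost its call without DMSO library 1 or 2 and without benzamil library 1 or 2, with log2 values of 1.75, 1.54, 1.48 and 1.60. Neither DESeq2 on the recovered reads (1.53, adjusted p = 0.438) nor limma on the deposited log2 values (0.53, adjusted p = 0.462) called Krt77. Krt80 lost its call with scaling by total reads (0.54). Krt1 and Krt10, which replace Krt5 and Krt14 as cells leave the basal layer, had values of −0.56 ± 0.23 (adjusted p = 0.0795) and 0.52 ± 0.24 (adjusted p = 0.122). Krt1 passed the edgeR test as lower without DMSO library 2 (−0.72, adjusted p = 0.0344), without benzamil library 2 (−0.76, adjusted p = 0.026) and with scaling by total reads (−0.82, adjusted p = 0.0176).

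For Krt5 to its suprabasal successor Krt1, the mean log2 ratio was 0.57 ± 0.32 with benzamil and 0.53 ± 0.54 with DMSO, a difference that did not pass (exact permutation p = 0.914). The ratio of Krt14 to Krt10 averaged −0.48 ± 0.36 with benzamil and 0.29 ± 0.56 with DMSO, a difference of −0.77 ± 0.33 (exact permutation p = 0.0857, adjusted 0.15). In untreated skin Krt1 had only 11 and 13 reads, and Krt5 reads were 9.36 and 15.1 times as many. With DMSO relative to untreated skin Krt1 rose by 4.27 and Krt10 by 1.93, both above the 1.10 of Krt5 and the 1.32 of Krt14. Of all tested genes, edgeR called 9.93% higher and 8.45% lower with DMSO, and 2.44% higher with benzamil, relative to untreated skin. Relative to untreated skin 4 of the 6 suprabasal keratins rose with benzamil: Krt1 by 3.70, Krt10 by 2.45, Krt2 by 1.74, and Krt78, whose 203 benzamil reads against 2 untreated reads gave a ratio of 15.9 (exact 95% counting interval 4.34 to 132). Krt2 lost its call without untreated library 1 (1.69, adjusted p = 0.0679). With DMSO 2 of 6 rose and 1, Krt77, fell by 2.77 on the log2 scale, but without untreated library 2 the Krt77 value was 1.24 (adjusted p = 0.683), and DESeq2 did not call it (−2.73, adjusted p = 0.214).

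Stress keratins fell with benzamil relative to DMSO while the basal pair did not pass the test. Of 4 tested, 3 fell in edgeR, where 12.1% of all tested genes were called lower. The log2 changes were −3.31 for Krt6b, −2.06 for Krt6a and −1.30 for Krt17. Krt6a and Krt6b are known as closely similar copies. Whether their transcript ends are shared was not checked, so the split of reads between them is uncertain. Krt16 had −0.93 ± 0.40 (adjusted p = 0.0948), and without benzamil library 4 it was −2.06 and passed (adjusted p = 1.9e-06). It also passed with scaling by total reads (−1.16), with no filter on low read numbers (adjusted p = 0.0308 in edgeR), with the replicate number as a block (−1.44, adjusted p = 0.00529) and in limma (−1.36), and without both shallowest benzamil libraries, so it passed in 6 of 18 alternatives. Krt5 reads were 8.33, 4.24, 9.92 and 1.86 times the Krt6a reads across benzamil libraries 1 to 4, whereas DMSO libraries 1 to 4 had ratios of 1.28, 1.33, 1.59 and 2.32 (exact permutation p = 0.0571, adjusted 0.133). Benzamil library 4 alone overlapped the DMSO range. The log2 ratio of Krt14 to Krt16 differed by 1.22 ± 0.56 (exact permutation p = 0.143, adjusted 0.2). Relative to untreated skin all 4 stress keratins rose with DMSO in edgeR, against 9.93% of all tested genes. Their median log2 change was 5.70, over 3 to 12 reads per gene in untreated skin. In benzamil over untreated, edgeR called 2.44% of all tested genes higher. With benzamil relative to untreated skin 3 of 4 rose in edgeR, Krt16 by 5.32 (805 benzamil reads and 4 untreated reads, all in untreated library 1), Krt6a by 3.09, and Krt6b, whose 218 benzamil reads against 3 untreated reads gave a ratio of 11.4 (exact 95% counting interval 3.84 to 55.6). Krt6a lost that call without untreated library 1 (2.89, adjusted p = 0.05), and Krt6b lost it with scaling by total reads (3.39) and without benzamil library 2 or 4 or either untreated library (3.16 to 4.11).

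The genes that anchor basal cells to the basement membrane were read as a list of 13, of which 12 were tested. In benzamil over DMSO 4 rose by edgeR and 0 fell, where 9.91% of all genes were called higher and 12.1% lower, with 5 higher and 1 lower at an unadjusted p under 0.05. DESeq2 on the recovered reads called 2 higher, Dst and Col7a1, and 0 lower. The list's median was 0.32 against −0.01 over all genes. Col7a1, the collagen of anchoring fibrils, rose by 1.99 ± 0.48 from 36 reads in the benzamil group and 20 in the DMSO group. Dst, which carries the hemidesmosome linker BP230 that binds Krt5 and Krt14 filaments, stood at 1513, 1132, 1888 and 1223 CPM in benzamil libraries 1 to 4. Its levels were 338, 497, 589 and 508 CPM in DMSO libraries 1 to 4, while untreated libraries 1 and 2 had 2423 and 2062 CPM. The 3 groups of Dst values did not overlap, in the same order of groups as Krt15. Of all tested genes, 11.1% had every benzamil library above every DMSO library, and 18.6% had every DMSO library below both untreated libraries. The share of genes with this order of all 3 groups was not computed.

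Dst rose by 1.58 ± 0.22 in benzamil over DMSO (adjusted p = 1.77e-05, edgeR) and fell by 2.23 on the log2 scale in DMSO over untreated (adjusted p = 1.20e-06, edgeR). Lama3, a chain of laminin 332, rose by 1.24 ± 0.35, but not without benzamil library 1 (0.98, adjusted p = 0.114) and not in DESeq2 (1.17, adjusted p = 0.0515). Itgb4, the partner of Itga6, rose by 0.61 ± 0.22 (adjusted p = 0.0465), a call lost in 14 of 18 alternatives, among them scaling by total reads (0.34, adjusted p = 0.278), DESeq2 (0.54, adjusted p = 0.139) and the fit without any 1 DMSO library. Itga6 itself (0.53 ± 0.21, adjusted p = 0.0721) and Col17a1, the collagen of hemidesmosomes (0.17 ± 0.19, adjusted p = 0.566), did not pass.

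In DMSO over untreated 4 of the 12 anchorage genes fell by edgeR and 0 rose, against 8.45% and 9.93% of all tested genes. At an unadjusted p under 0.05 there were 6 lower and 0 higher, and DESeq2 called 3 lower and 0 higher. The list's median was −0.82 against 0.18 over all genes. Besides Dst these were Col7a1 (−2.92), Itgb4 (−1.06) and Plec, another filament linker (−0.99 on the log2 scale). Without untreated library 1 the values were −2.44 for Col7a1, −0.82 for Itgb4 and −0.27 for Plec, and all 3 calls were lost. Without untreated library 2 the Itgb4 call was lost as well (−1.08, adjusted p = 0.0919). Between benzamil and untreated skin edgeR called 0 of the 12 in either direction, against 4.00% of all tested genes. There were 2 lower and 0 higher at an unadjusted p under 0.05, and DESeq2 also called 0. Dst had −0.64 ± 0.26 there (adjusted p = 0.164).

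**Figure D5:**
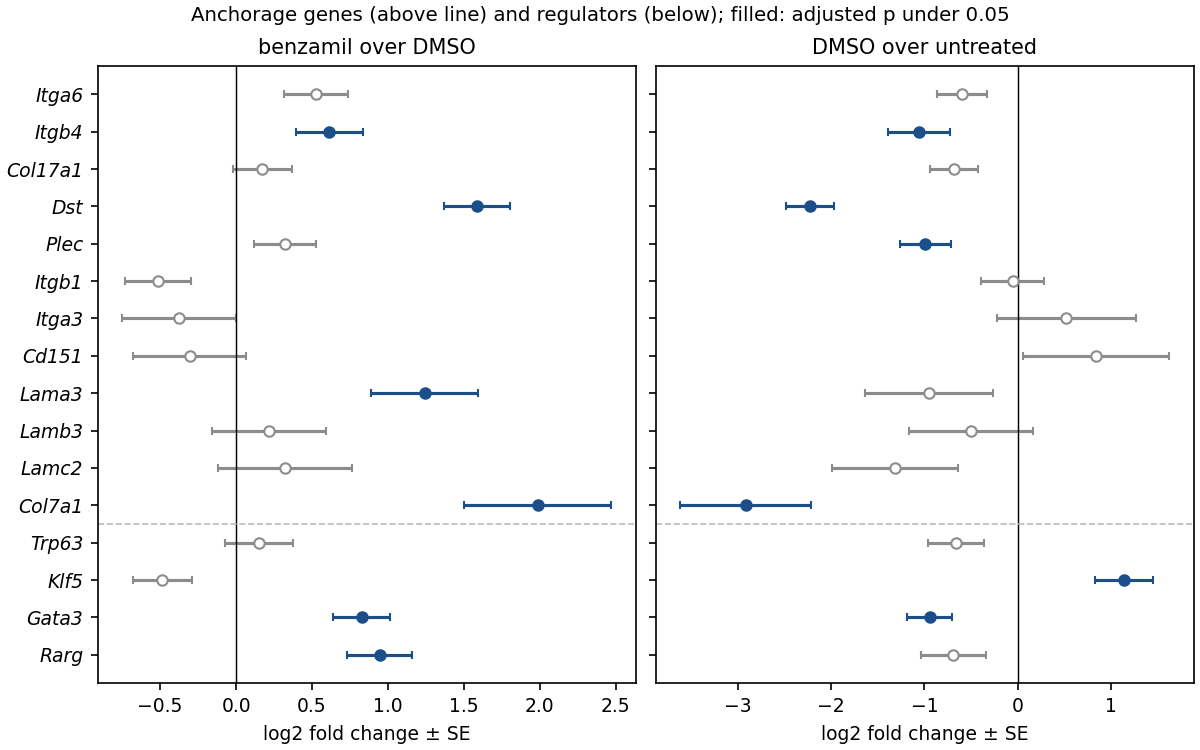
Log2 fold change with its standard error for 12 genes of basal cell anchorage (above the dashed line) and 4 regulators of basal keratins (below it), in benzamil over DMSO on the left and DMSO over untreated on the right; filled points have an adjusted p under 0.05 in edgeR. Dst and Col7a1 lie farthest right in the left panel and farthest left in the right panel.

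Transcription factors known to act on basal keratin genes formed a list of 12, with 10 tested. Trp63, the master regulator of basal keratinocytes that drives Krt5 and Krt14, stood at 328, 230, 440 and 342 CPM in benzamil libraries 1 to 4. Its levels were 277, 343, 283 and 283 CPM in DMSO libraries 1 to 4, while untreated libraries 1 and 2 had 646 and 282 CPM. All groups overlapped. Its log2 change was 0.15 ± 0.22 in benzamil over DMSO (adjusted p = 0.67) and −0.66 ± 0.30 in DMSO over untreated (adjusted p = 0.125), both in edgeR. The second value depended on the untreated library: it was 0.16 without untreated library 1 and −1.02 without untreated library 2, where it passed (adjusted p = 0.0422).

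In benzamil over DMSO 2 of the 10 regulators rose and 0 fell by edgeR, near the 22.0% of all genes called in either direction, with 2 higher and 1 lower at an unadjusted p under 0.05, and the median was 0.20 against −0.01 over all genes. Gata3, a factor of epidermal differentiation, rose by 0.83 ± 0.19 (adjusted p = 0.00253). It ranged from 778 to 861 CPM in the benzamil group and from 362 to 547 CPM in the DMSO group, and stood at 902 and 845 CPM in untreated skin. Rarg, the main retinoic acid receptor of epidermis, rose by 0.95 ± 0.21 (adjusted p = 0.00244), and retinoic acid receptors are known in human keratinocytes to repress KRT5 and KRT14 transcription. Klf5, a factor of proliferating basal cells, had −0.49 (adjusted p = 0.071, edgeR), and was called lower with scaling by total reads (−0.75, adjusted p = 0.0115), with DESeq2 size factors (−0.54, adjusted p = 0.0439), in DESeq2 itself (−0.55, adjusted p = 0.0441) and without benzamil library 1 (−0.65, adjusted p = 0.0372). Relative to untreated skin Klf5 rose with DMSO by 1.14 (adjusted p = 0.0119) and Gata3 fell by 0.94 on the log2 scale (adjusted p = 0.00785). Without untreated library 1 neither was called (Klf5 1.11, adjusted p = 0.0957, and Gata3 −0.81, adjusted p = 0.107), and without untreated library 2 Gata3 was not (−0.89, adjusted p = 0.0538). With benzamil relative to untreated skin 0 of 10 were called by edgeR, against 4.00% of all tested genes. Of these 10, 0 had an unadjusted p under 0.05, and DESeq2 called 0.

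Among 16 genes of basal cell signalling and adhesion, 13 were tested, and in benzamil over DMSO 2 rose and 3 fell, against 9.91% of all genes called higher and 12.1% lower. Ccnd2, a D-type cyclin, rose by 1.25 (adjusted p = 7.90e-05) and Bcam, a laminin receptor, by 1.05 (adjusted p = 0.0132). Cd44, a hyaluronan receptor, fell by 1.51 on the log2 scale (adjusted p = 7.99e-05), and Egfr, the epidermal growth factor receptor, fell by 1.19 (adjusted p = 0.0148). Cdh3, the P-cadherin of basal cells, had 3 reads in the benzamil group and 158 in the DMSO group. The ratio, scaled to library size, was 0.0412 with an exact 95% counting interval of 0.00841 to 0.123. This interval, like the other exact counting intervals here, pools reads over libraries and covers counting error only. DMSO library 1 held 108 of the 158 reads and stood at 112 CPM, against 44.4 to 56.7 CPM in the other DMSO libraries. Bcam lost its call without DMSO library 1 (0.94), without benzamil library 4 (0.80) and with scaling by total reads (0.79), and Egfr without benzamil library 1 (−0.99) or 3 (−1.01). Relative to untreated skin, with DMSO Ccnd2 fell by 1.67, Bcam fell by 1.46 and Cd44 rose by 2.09 on the log2 scale, and Bcam lost its call without DMSO library 1 (−1.36) and without untreated library 1 (−0.74). Between benzamil and untreated skin edgeR called 0 of 13, against 4.00% of all tested genes. Of these 13, 0 had an unadjusted p under 0.05, and DESeq2 called 0.

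Linkers that tie keratin filaments to desmosomes numbered 8, with 7 tested. In benzamil over DMSO 2 of the 7 rose and 0 fell by edgeR, near the 22.0% of all genes called, and the list's median was 0.02. Pkp3, a plakophilin, rose by 0.84 and Ppl, periplakin, by 0.80 on the log2 scale, both lost with scaling by total reads (0.58 and 0.52). Dsp, desmoplakin, had 0.49 (adjusted p = 0.0733, edgeR) and was called higher in DESeq2 (0.42, adjusted p = 0.000859) and with only both groups compared in the fit (0.51, adjusted p = 0.0414). Jup, plakoglobin, had −0.51 (adjusted p = 0.103, edgeR) and was called lower with scaling by total reads (−0.77, adjusted p = 0.0265) and without benzamil library 2 (−0.73, adjusted p = 0.0381). With DMSO relative to untreated skin Jup rose by 1.88, Evpl (envoplakin) by 1.56 and Pkp1 by 1.24. Jup and Pkp1 lost their calls without untreated library 2 (1.57 and 1.08), and Evpl without DMSO library 1 (1.43) or untreated library 1 (1.07) and in DESeq2 (1.60, adjusted p = 0.0677). In benzamil over untreated edgeR called 1 of the 7, Pkp3 (1.07, adjusted p = 0.0458), and 10 of 14 alternatives removed that call, with adjusted p up to 0.158 without untreated library 2. DESeq2 called Dsp there as well (0.42, adjusted p = 0.0408). Of all tested genes, edgeR called 4.00% in that comparison.

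Levels of other cell types moved beside the basal keratins. Since Krt15 is also a bulge marker, a list of 14 bulge and upper follicle genes was read: 10 were measured and 7 tested, while Lgr5, Lhx2, Krt19 and Fgf18 were not in the joined table. Their summed level was 819 to 1064 CPM in the benzamil group, 584 to 816 CPM in the DMSO group, and 578 to 794 CPM in untreated skin. Krt79, a gene of the upper follicle, was the most abundant of them in every group and weighs most in this sum. Of the 7 tested, edgeR called 1 higher and 0 lower in benzamil over DMSO, and 1 higher and 1 lower in DMSO over untreated. In benzamil over untreated it called 1 higher and 0 lower. In these comparisons 22.0%, 18.4% and 4.00% of all tested genes, in that order, were called in either direction. The list's median log2 change was 0.59 in benzamil over DMSO and −0.66 in DMSO over untreated, against −0.01 and 0.18 over all genes. Mean levels of Lgr6, Cd34 and Tcf7l2 were lowest with DMSO, as for Krt15, while that of Nfatc1 was lowest with benzamil. None of these was called in benzamil over DMSO. Krt24, a keratin of that list, rose by 1.72 ± 0.34 in benzamil over DMSO (adjusted p = 0.000803) and fell by 1.89 on the log2 scale in DMSO over untreated (adjusted p = 0.0167), the second call being lost without untreated library 1 (−1.35, adjusted p = 0.254). Krt79, a keratin of the upper follicle, was at 569 ± 107 CPM with benzamil, 434 ± 70.2 CPM with DMSO and 198 ± 13.6 CPM in untreated skin (SD, n = 4, 4 and 2). It rose by 1.13 in DMSO over untreated (adjusted p = 0.0159) and by 1.52 in benzamil over untreated (adjusted p = 0.00709), did not pass in benzamil over DMSO (0.39, adjusted p = 0.145), all in edgeR, and lost both calls without untreated library 1 (1.15 and 1.54). Sox9 was at 69.5 ± 26.0 CPM with benzamil, 67.7 ± 11.1 CPM with DMSO and 64.0 ± 14.4 CPM in untreated skin (SD, n = 4, 4 and 2). The part of follicle cells in the Krt15 result was not tested.

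Summed levels of connective tissue and muscle genes were highest in untreated skin, which did not hold for every gene of these lists. Summed over 10 measured of 11 fibroblast and matrix genes, the level was 740 to 2351 CPM in the benzamil group, 568 to 1093 CPM in the DMSO group, and 8380 to 19341 CPM in untreated skin. Skeletal muscle genes, 12 of 12 measured, summed to 739 to 1720 CPM with benzamil, 211 to 1266 CPM with DMSO and 3115 to 3499 CPM in untreated skin. In benzamil over DMSO 8 of these 12 rose, the direction of Krt15, and 0 fell by edgeR, against 9.91% and 12.1% of all tested genes. Their median log2 change was 1.36, while DESeq2 called 1 higher and 0 lower. In DMSO over untreated 9 of the 12 fell and 0 rose by edgeR, against 8.45% and 9.93% of all tested genes. Sebaceous gland genes, 9 of 11 measured, summed to 4313 to 7068 CPM with benzamil, 1574 to 3267 CPM with DMSO and 5992 to 8157 CPM in untreated skin. Most of this sum was Scd1, with means of 4291, 1910 and 6324 CPM in that order. Other genes differed: Awat1 (322, 135 and 121 CPM) and Elovl3 (189, 129 and 43.1 CPM) had their lowest means in untreated skin. In benzamil over untreated edgeR called 2 of 6 tested higher and 0 lower, against 2.44% and 1.56% of all tested genes. Proliferation genes, 16 of 16 measured, summed to 1031 to 1422 CPM with benzamil, 1508 to 1893 CPM with DMSO and 646 to 816 CPM in untreated skin. The part of this tissue make-up in the basal keratin changes was not tested.

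The genes whose pattern over the 10 libraries lay closest to each basal keratin were found by the root mean square difference of centred log2 CPM, among 1435 tested genes with a mean of at least 100 CPM. For Krt5 they were Top2a (0.15), Lamp2 (0.17), Atp2a2 (0.17), Pdia3 (0.19) and Atxn7l3b (0.19), where the median gene had 0.67. For Krt14 they were Eif2s2 (0.16), S100a16 (0.17), Eef1g (0.18), Usp16 (0.19) and Hspa4 (0.19), with a median of 0.66. For Krt15 the closest were Pnisr (0.50), Pik3r1 (0.51), Tnnc2 (0.53), Sema3d (0.56) and Kif21a (0.59), with a median of 1.36. Krt14 ranked only 293 among the genes closest to Krt5 (0.48), and Krt15 ranked 1407 (1.69), near the far end. These distances share library depth and scaling, and are given as a description.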

How the data were processed

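RNA of 10 ear skin libraries was counted with a 3' kit (500 ng of RNA, molecular identifiers, 150-cycle sequencing, per the labels). The submitters' processing notes name the tools STAR, featureCounts, DESeq2 and the build mm10, without versions. The authors deposited 2 tables of log2 values (variance-stabilised, each normalized on its own), and DESeq2 tables with mean signal, log2 fold change, score and p-value. A deposited table of counts holds only human identifiers and entered no comparison. The design named edgeR on recovered reads although the deposited unit is log2. Inverting the transform gave whole reads (within 0.001) for all values, and 39116 of 39116 DMSO values gave equal reads in both tables.

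Reads of the 9779 shared genes entered 1 edgeR fit (4.0.16, R 4.3.3; TMM, filterByExpr with at least 10 reads and a total of 15, a mean per group, no covariate). The threshold for a call was 0.05, after Benjamini-Hochberg adjustment over 5245 genes. The common biological coefficient of variation was 0.195. Ratios used exact permutation tests (scipy 1.17.1). The fit and the inversion were tested on simulated data. Alternatives were other scalings, no filter, ribosomal RNA genes left out, only 2 groups, DESeq2 1.42.0, limma 3.58.1 on the deposited log2 values, a replicate block, each library left out, and, chosen after seeing the data, both shallowest benzamil libraries left out. Named genes are the 3 keratins, in each list and comparison up to 4 called genes with the largest change plus known partners of basal keratins, and the 5 genes closest in pattern to each; genes of the marker lists named beside the results were chosen after their values were seen. The members and lists were chosen with earlier results of these data known. Coordinates and sequences are from GENCODE M21 on mm10, where the identifiers matched without their version. Collapsing of molecular identifiers and use of strand in counting are not stated in the labels.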

Additional observations from a re-analysis of the deposited data

Results flagged for a closer look

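Levels, ratios and shares of the keratins were examined within the benzamil and DMSO groups for a library far from the others. Of 28 such sets of 4 values, 4 had one, and chance gives about 1 in 20 for a single set. The sets come from the same libraries and share genes, so they are not independent, and the 2 rates cannot be compared directly. Krt15 stood at 91.4 CPM in DMSO library 1, against 239 to 259 CPM in the other DMSO libraries. The log2 ratio of Krt5 to Krt1 was 1.33 in DMSO library 2, against 0.16 to 0.36 in the others. The log2 ratio of Krt14 to Krt10 was 1.14 in the same library, against −0.02 to 0.04. The basal share of keratin reads was 26.7% in benzamil library 2, against 20.8% to 21.5% in the other benzamil libraries.

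The deposited count table lists 61533 identifiers, all human and 0 of mouse, although the labels give mouse samples. It holds signal under the names of the basal keratins that no comparison used. Its total was 119375 counts in the benzamil group, 270713 in the DMSO group and 19146 in untreated libraries. KRT5 had 264 counts with benzamil, 737 with DMSO and 32 in untreated libraries, which is 2212, 2722 and 1671 CPM of those totals. KRT14 had 73 counts (612 CPM) with benzamil, 453 (1673 CPM) with DMSO and 3 (157 CPM) in untreated libraries. KRT15 had 14 counts (117 CPM) with benzamil, 19 (70.2 CPM) with DMSO and 0 in untreated libraries, where 0 allows up to 157 CPM.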

How the results depend on the processing

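Over 258 recomputed values, 244 kept their direction and their side of the threshold (or stayed within 1.5 times for counts), 7 moved, 6 no longer passed, 1 newly passed and 0 changed sign. Krt5 in benzamil over DMSO passed with scaling by total reads (−0.78). That scaling moved the median of all genes to −0.26 in benzamil over DMSO and from 0.17 to 0.00 in benzamil over untreated, where Krt14 no longer passed (0.95). Without untreated library 1, Krt5 in DMSO over untreated (0.76) and Krt15 in benzamil over untreated (−1.44) no longer passed. Leaving out 1 library gave 0.76 to 1.84 for Krt5 in DMSO over untreated, 0.99 to 1.46 for Krt14 and −2.27 to −1.44 for Krt15 in benzamil over untreated. With both shallowest benzamil libraries (3 and 4) left out, an alternative chosen after seeing the data, Krt14 in benzamil over untreated was 0.98 and no longer passed. Genes called numbered 1155 in benzamil over DMSO (647 to 1080 without 1 library, the lowest without DMSO library 1, and 584 without both shallowest benzamil libraries). They numbered 964 in DMSO over untreated (433 to 930, the lowest without untreated library 1) and 210 in benzamil over untreated (99 to 182, and 114 without untreated library 2, and 137 without both shallowest). Limma on the deposited log2 values called 2910 in DMSO over untreated, and could not be run for benzamil over untreated, whose groups lie in separately normalized tables. The causes of these differences in the number of genes called were not tested.

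With the replicate number as a block, Krt5, Krt14 and Krt15 were −0.52, −0.20 and 1.14 in benzamil over DMSO, 1.31, 1.33 and −3.13 in DMSO over untreated, and 0.79, 1.13 and −1.99 in benzamil over untreated, and no call of these changed. Deviations of same-numbered benzamil and DMSO libraries correlated at 0.0007 to 0.0686, so the numbers were not taken to pair samples. Ratios without 1 library have no test, since 0.0571 is the smallest exact p of 3 against 4. In untreated skin 1 read was worth 13.5 and 14.8 CPM, which limits every comparison with it.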
